A study of Mus musculus with 20 samples.

Results

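The interferon response genes described here are 50 mouse genes chosen by symbol: 4 receptor chains, 3 Jak kinases, 7 transcription factors, 5 nucleic acid sensors, 20 antiviral effectors, 3 guanylate-binding proteins, 3 genes of the PARP and ubiquitin ligase group, 2 chemokines and 3 feedback inhibitors. All 50 had values in each of the 3 expression tables, among 17104 genes listed in any table and 13850 listed in all 3. The values come from RNA-seq of MycCaP-Bo tumor cells, a prostate cancer line driven by Myc and selected in FVB/N males for growth in bone. The cells were sorted as CD45- iRFP+ cells from bone metastases. The mice were 4 to 6 weeks old when they entered the assay, before treatment. Naive tumors had received vehicle, and Resist tumors had received the antiandrogen enzalutamide at 30 mg/kg daily for 18 days. Resist-Mac tumors had the same enzalutamide course with macrophages depleted by clodronate liposomes, at 1 mg per mouse, over the last 4 days. Naive-Mac tumors had vehicle and 4 days of the same depletion. Each of the 4 groups had 5 libraries, and each library held the pooled tumor cells of 3 mice, so the spread between libraries is that between pools. All 4 groups came from 1 selected cell line, so no other tumor genotype is represented.

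Interferons signal through paired receptor chains that carry Jak kinases. Type I interferons act through Ifnar1 and Ifnar2 with Jak1 and Tyk2, and interferon gamma acts through Ifngr1 and Ifngr2 with Jak1 and Jak2. The kinases activate Stat proteins, which enter the nucleus with Irf factors and switch on antiviral genes, among them the oligoadenylate synthetases, the Ifit and Ifitm proteins and the guanylate-binding proteins. Socs1, Socs3 and Usp18 are made in response and dampen the same pathway.

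The promoters of these genes were searched for the sites through which the pathway acts. The interferon-stimulated response element, at which complexes of Stat2 and Irf9 bind, was searched on both strands as GAAA, any 2 bases and GAAA, counting overlapping matches. It was present in the RefSeq promoter windows (250 bases before to 50 after a gene's start, build GRCm38.p6) of 19 of the 41 members with an entry, or 46.3%, and in 3.99% of all 27025 genes. The motif TTCNNNGAA, at which Stat dimers bind and which reads alike on both strands, was present in 13 of the 41, or 31.7%, and in 9.55% of all genes. Because members were picked as interferon response genes, these shares describe the list and were not tested. The first 5 stretches below are examples of matches in members that moved together from library to library. Oasl2, which followed the other members most closely, and Irf7 had windows without a match. The other 3 stretches belong to members that were called in a comparison. Each stretch is the 120 bases before the start, written in the gene's own direction, and capitals mark the response element motif or its reverse complement.
Isg15, chr4:156200819-156200938, - strand: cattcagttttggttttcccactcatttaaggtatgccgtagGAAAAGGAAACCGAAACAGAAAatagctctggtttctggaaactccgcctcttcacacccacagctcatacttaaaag
Oas1a, chr5:120907526-120907645, - strand: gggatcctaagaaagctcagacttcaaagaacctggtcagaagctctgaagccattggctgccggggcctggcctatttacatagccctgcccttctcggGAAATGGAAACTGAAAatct
Oas3, chr5:120777660-120777779, - strand: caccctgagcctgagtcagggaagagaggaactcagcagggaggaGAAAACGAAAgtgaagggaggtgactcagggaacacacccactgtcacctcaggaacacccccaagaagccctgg
Gbp3, chr3:142559924-142560043, + strand: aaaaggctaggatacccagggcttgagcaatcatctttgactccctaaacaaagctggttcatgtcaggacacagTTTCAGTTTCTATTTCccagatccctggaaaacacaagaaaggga
Ifit1, chr19:34640769-34640888, + strand: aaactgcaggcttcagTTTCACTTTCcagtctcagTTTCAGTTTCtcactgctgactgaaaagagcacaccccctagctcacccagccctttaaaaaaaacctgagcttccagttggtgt
Ifitm2, chr7:140955962-140956081, - strand: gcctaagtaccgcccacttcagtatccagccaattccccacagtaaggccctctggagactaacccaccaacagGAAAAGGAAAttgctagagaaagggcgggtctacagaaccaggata
Ifitm1, chr7:140967956-140968075, + strand: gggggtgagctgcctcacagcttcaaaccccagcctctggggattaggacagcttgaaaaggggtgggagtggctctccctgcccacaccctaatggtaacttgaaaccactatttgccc
Socs3, chr11:117969367-117969486, - strand: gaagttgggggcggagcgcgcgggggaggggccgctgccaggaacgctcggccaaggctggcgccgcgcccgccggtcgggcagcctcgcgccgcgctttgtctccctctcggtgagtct
Isg15, a ubiquitin-like protein joined to other proteins, held 3 overlapping matches, and Oas1a, Gbp3 and Ifit1 held 2 each. Ifitm1 and Socs3 held none in the whole window, which says only that these letters are absent from the window. The Socs3 window did hold TTCNNNGAA. The sequences are of the reference strain and not of the FVB/N line.

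Levels are in FPKM, fragment numbers scaled by transcript length and by the mapped total, so that genes can be compared with each other. The tables hold no read counts, so sequencing depth is unknown and counting error cannot be stated. P-values measure the spread between pools. Between 12087 and 14056 genes were above 0 in a library, and no 2 libraries were identical. Naive and Resist libraries formed batch 1 in the labels, Resist-Mac batch 2 and Naive-Mac batch 3, so that depletion and batch cannot be told apart. Of the markers of prostate epithelium, Krt8 and Fkbp5 were at 84.8 to 408 FPKM in all 20 libraries, whereas Krt18 and Cdh1 stayed at or below 0.23 FPKM. The sum over 17 macrophage markers was 24.9 to 128 FPKM in naive, 12.9 to 73.4 in Resist, 46.6 to 956 in Resist-Mac and 8.56 to 599 in Naive-Mac libraries. That over 12 neutrophil and monocyte markers was 177 to 1280, 62.4 to 608, 409 to 8850 and 58.8 to 6200 FPKM in the same order. Of the macrophage sum, Lyz2 made 787.8 of 956 FPKM in Resist-Mac replicate 1, and Mertk made 7.14 of 13.8 FPKM in Resist replicate 1. Adgre1 and Csf1r stayed at or below 0.52 and 2.1 FPKM, so the sum is not a measure of macrophage content. Cd163 was at 0 in every Resist and Naive-Mac library, and the pan-leukocyte gene Ptprc was at 0 to 5.35 FPKM. The part of such cells in the results below was not tested.

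The first comparison asked which of the genes differ in tumor cells that regrew under enzalutamide. A gene was tested when it averaged at least 1 FPKM, and it was called at an adjusted p under 0.05 in limma and a fold change over 1.5. Of 42 members tested in Resist vs. naive tumors, 2 were called, both higher in Resist, or 4.76%. Of all 10119 genes 6.35% were called, with 5.25% higher and 1.11% lower, so the share among members was close to the background. Ifitm1 and Socs3 were the called members, and Ifitm3 missed the threshold narrowly. The median log2 change of the members was 0.23, beside 0.03 over all genes. Above 0 were 34 of the 42 members, beside 5673 of all 10119 genes.

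Ifitm1 encodes an interferon-induced membrane protein that hinders virus entry. It was at 16.3, 12.4, 13.1, 17.3 and 9.27 FPKM in naive replicates 1 to 5 and at 69.5, 21.8, 40.2, 93.5 and 33.6 FPKM in the Resist replicates. Every Resist library lay above every naive library, with Resist replicates 1 and 4 the highest. The mean was 3.79-fold higher, and the log2 change was 1.69 (SE 0.32, 95% interval 0.99 to 2.39, adjusted p = 0.00436). Ifitm3, a close relative encoded in the same gene cluster, was at 58.0, 58.4, 69.8, 74.8 and 36.5 FPKM in naive and 129, 71.8, 97.7, 188 and 66.1 FPKM in Resist libraries. Its groups overlapped through Resist replicates 2 and 5, and its log2 change was 0.81 (SE 0.27, adjusted p = 0.0521). When values were corrected for the length and GC content of transcripts, Ifitm3 was called with a log2 change of 0.89 (adjusted p = 0.0348). Ifitm2, another gene of this family, had a log2 change of 0.29 (SE 0.11, adjusted p = 0.0836).

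Socs3, the inhibitor of Jak kinases that cytokines acting through Stat3 induce, was at 6.08, 7.83, 6.74, 10.5 and 9.38 FPKM in naive libraries. The Resist libraries were at 25.5, 27.0, 18.4, 10.3 and 13.1 FPKM. The groups overlapped, since Resist replicate 4 lay below naive replicate 4, while Resist replicates 1 and 2 were the highest of all 20 libraries. The log2 change of Socs3 was 1.06 (SE 0.24, 95% interval 0.55 to 1.57, adjusted p = 0.00978). The other feedback inhibitors were not called: Socs1 had a log2 change of 0.24 (SE 0.17, adjusted p = 0.34) and Usp18 one of -0.06 (SE 0.31, adjusted p = 0.918).

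Isg20, an exonuclease that degrades RNA, was the most abundant member in naive tumors and was lower under enzalutamide. It was at 325, 322, 284, 321 and 275 FPKM in naive and 215, 225, 198, 216 and 249 FPKM in Resist libraries, and the groups did not overlap. Its log2 change of -0.47 (SE 0.07, adjusted p = 0.00153) was under the fold threshold, so it was not called. Ifitm1 and Isg20 were the only 2 of 42 members whose groups did not overlap, or 4.76%, beside 12.8% of all genes. Higher values without overlap were seen for 8.45% of all genes and lower ones for 4.34%.

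**Figure D1:**
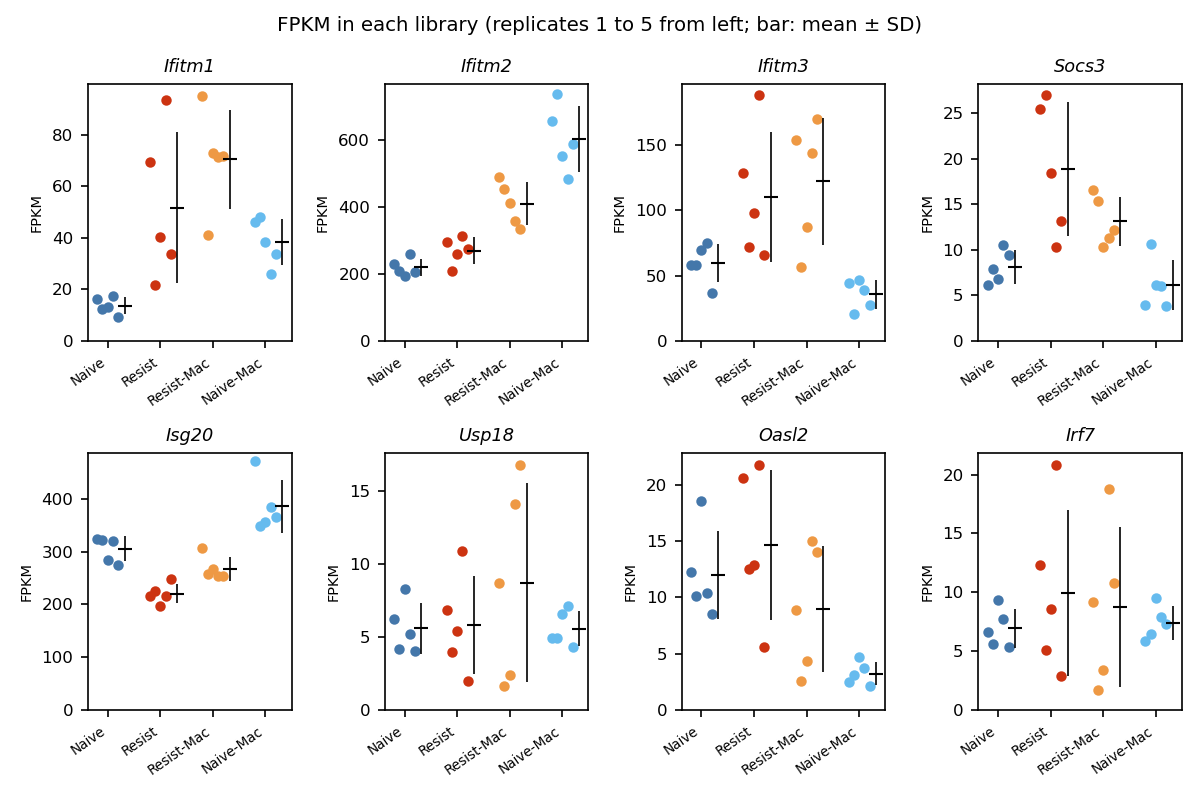
FPKM of 8 interferon response genes in each library of the 4 groups, with points for replicates 1 to 5 from left to right and bars for the mean ± SD. Ifitm1 was higher in all 5 Resist libraries than in any naive library, Isg20 was lower, and the points of Usp18, Oasl2 and Irf7 overlap between naive, Resist and Resist-Mac libraries.

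No receptor chain was called between naive and Resist tumors. Ifnar1 was at 8.5, 8.3, 8.25, 7.16 and 7.6 FPKM in naive and 9.2, 10.5, 11.4, 9.33 and 8.49 FPKM in Resist libraries, which overlapped at Resist replicate 5, and its log2 change was 0.26 (SE 0.09, adjusted p = 0.0512). Ifnar2 was at 16.7, 15.1, 16.5, 15.6 and 19.6 FPKM in naive and 25.8, 16.9, 24.8, 22.3 and 23.4 FPKM in Resist libraries. Its log2 change of 0.41 (SE 0.11, adjusted p = 0.0222) passed the adjusted p but not the fold threshold, and Resist replicate 2 fell among the naive values. Ifngr1, the ligand-binding chain for interferon gamma, was at 13.6, 13.2, 11.8, 13.9 and 12.8 FPKM in naive and 18.7, 15.7, 18.8, 18.6 and 13.9 FPKM in Resist libraries. Resist replicate 5 lay just below the highest naive value, and the log2 change was 0.36 (SE 0.09, adjusted p = 0.0178), again under the fold threshold. Ifngr2, the second chain of that receptor, was at 0 to 0.27 FPKM in naive and 0.04 to 0.16 FPKM in Resist libraries and was not tested.

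The other classes held no called member in Resist vs. naive tumors. Over all 42 members, 5 passed the adjusted p of limma without the fold threshold, or 11.9%, beside 18.9% of all genes. An unadjusted limma p under 0.05 was seen for 14 members. The share over all genes was not taken for it, so this count cannot be set above or below the background. The kinases Jak1, Jak2 and Tyk2 had log2 changes of 0.08, 0.17 and 0.26 with adjusted p of 0.449, 0.102 and 0.114. The 7 transcription factors ranged from -0.17 for Stat3 to 0.38 for Stat2. Genes of the oligoadenylate synthetase family went in different directions without passing the test, from -0.58 for Oas3 to 0.44 for Oasl1. The guanylate-binding proteins, GTPases that act on intracellular pathogens, lay together at 0.44 for Gbp7, 0.45 for Gbp2 and 0.50 for Gbp3, with adjusted p of 0.127 to 0.172.

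The number of members called rose when Resist replicate 5 was left out, the library with the lowest Resist value of 31 members. Its removal raises the Resist means of those members, so more calls higher in Resist are partly built in. Without it, 8 of 42 members were called, all higher in Resist, beside 8.3% of all genes. The 6 added were Ifitm3, Gbp2, Gbp3, Gbp7, Ifit1 and Zbp1, with log2 changes of 0.97, 0.68, 0.70, 0.59, 0.76 and 0.67. In these bulk samples, fewer cells of a type and less RNA per cell cannot be told apart. Among marker lists, 9 of 9 tested neutrophil and monocyte genes were below 0 in Resist vs. naive tumors, beside 4446 of all 10119 genes. Their limma adjusted p ran from 0.27 to 0.858. Ly6d, counted in a list of plasmacytoid dendritic cell markers and also made by epithelia, was called higher in Resist with a log2 change of 1.59, and so was the erythroid gene Hba-a1 at 0.78. Siglech, the defining marker of plasmacytoid dendritic cells, was at 0 to 0.04 FPKM in these 10 libraries.

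**Figure D2:**
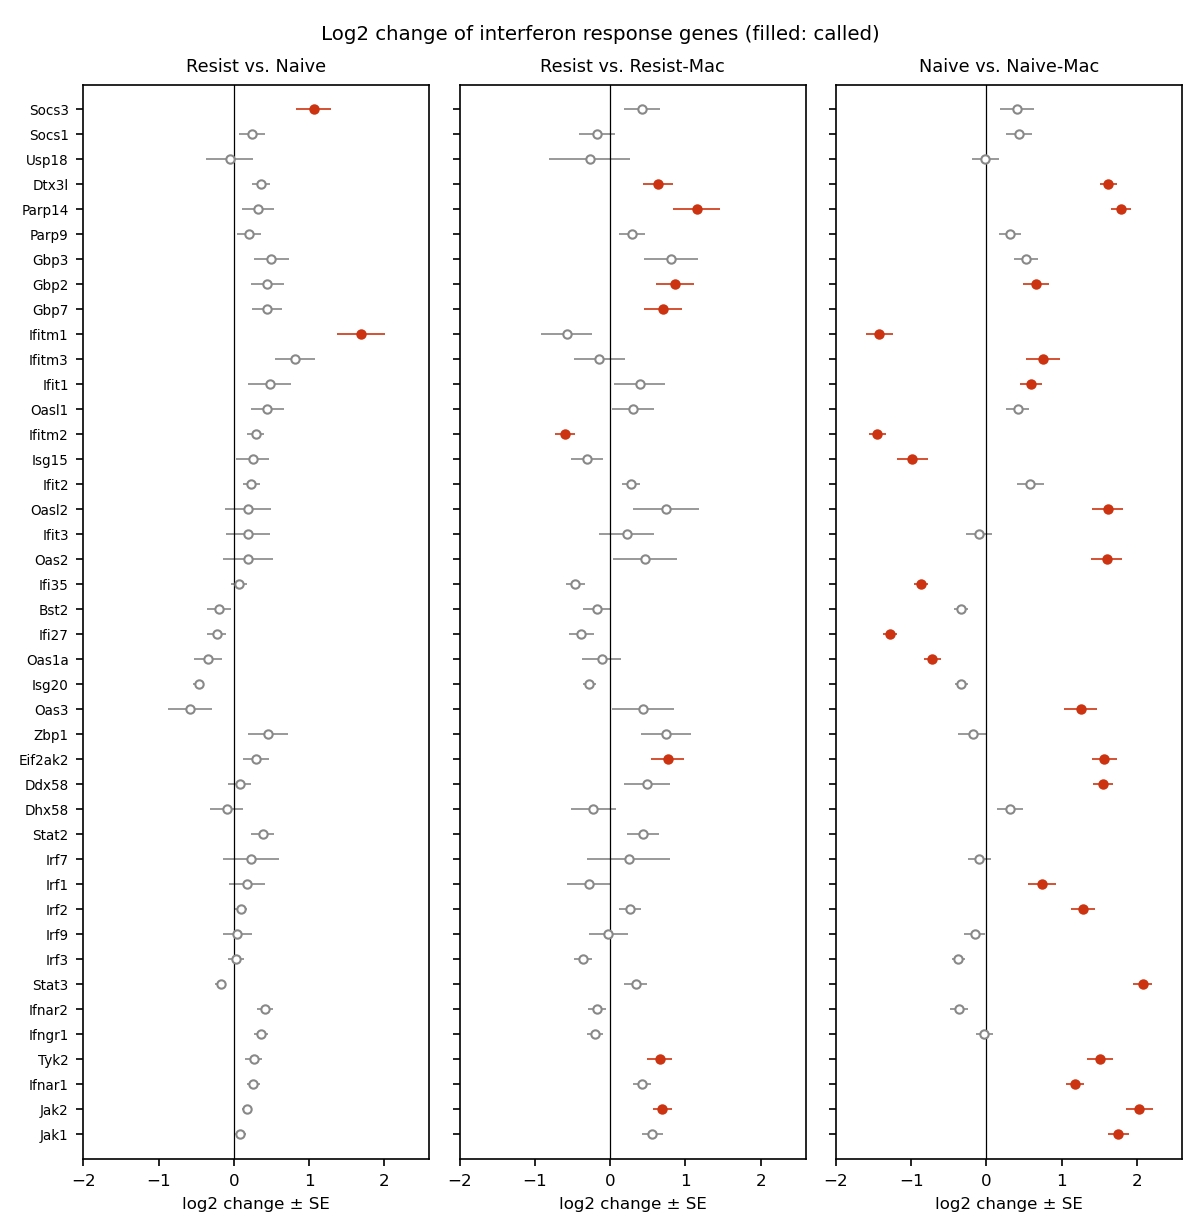
Log2 change with its SE for each member tested in the 3 pairwise comparisons, grouped by role, with filled points for called members. There are 23 filled points for naive less Naive-Mac, 8 for Resist less Resist-Mac and 2 for Resist less naive.

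The second comparison asked which of the genes changed in resistant tumors when macrophages were depleted, and it sets batch 1 against batch 2. Of 42 members tested, 8 were called, or 19%, beside 21.7% of all 10049 genes. Members called with more expression in Resist were Parp14, Gbp2, Eif2ak2, Gbp7, Jak2, Tyk2 and Dtx3l, 7 members beside 9.71% of all genes. Ifitm2 alone was called lower, beside 12% of all genes. The median log2 change of members was 0.28, beside -0.02 over all genes. Where genes had to average 5 FPKM, the median was -0.07 over 28 members and -0.07 over all genes.

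Parp14 and Dtx3l belong to the group of ADP-ribosyltransferases and ubiquitin ligases induced by interferon. Parp14 was at 5.49, 6.03, 5.64, 7.93 and 2.44 FPKM in Resist and 1.85, 0.49, 1.34, 3.95 and 2.5 FPKM in Resist-Mac libraries. Resist replicate 5 fell inside the Resist-Mac range, the other 4 lay above it, and the log2 change was 1.15 (SE 0.31, adjusted p = 0.0105). Dtx3l, the partner ligase of Parp9, was at 7.12, 8.59, 8.19, 8.9 and 5.36 FPKM in Resist and 4.58, 2.42, 4.45, 6.24 and 5.7 FPKM in Resist-Mac libraries, with overlap through Resist replicate 5 and a log2 change of 0.63 (SE 0.20, adjusted p = 0.0214). Parp9 itself had a log2 change of 0.29 (SE 0.17, adjusted p = 0.18).

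The guanylate-binding proteins were all above 0. Gbp2 was at 4.32, 5.3, 4.25, 4.47 and 1.5 FPKM in Resist and 1.57, 1.18, 1.38, 2.89 and 1.33 FPKM in Resist-Mac libraries, with Resist replicate 5 again low and Resist-Mac replicate 4 high, and its log2 change was 0.86 (SE 0.25, adjusted p = 0.0139). Gbp7 was at 1.8, 2.3, 2.18, 3.44 and 1.03 FPKM in Resist and 1.37, 0.18, 0.54, 1.51 and 1.15 FPKM in Resist-Mac libraries, and the 2 groups overlapped through Resist replicate 5. Its log2 change was 0.70 (SE 0.25, adjusted p = 0.0391). Gbp3 had a log2 change of 0.81 (SE 0.35, adjusted p = 0.0834) and was not called.

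Jak2 gave the clearest separation among the kinases. It was at 26.2, 27.3, 26.9, 25.1 and 28.8 FPKM in Resist and 16.7, 11.2, 17.7, 19.6 and 17.1 FPKM in Resist-Mac libraries, without overlap, and its log2 change was 0.70 (SE 0.13, adjusted p = 0.00111). Tyk2 was at 10.1, 13.2, 12.4, 13.1 and 8.64 FPKM in Resist and 5.79, 5.22, 6.21, 8.35 and 9.25 FPKM in Resist-Mac libraries, which overlapped through Resist replicate 5 and Resist-Mac replicate 5. The log2 change of Tyk2 was 0.66 (SE 0.16, adjusted p = 0.00624). Eif2ak2, a kinase that halts translation when it meets viral RNA, was at 5.79, 5.29, 6.77, 8.68 and 3.98 FPKM in Resist and 2.47, 2.05, 2.48, 4.67 and 4.44 FPKM in Resist-Mac libraries. Resist replicate 5 lay below Resist-Mac replicates 4 and 5, and the log2 change of Eif2ak2 was 0.76 (SE 0.22, adjusted p = 0.0132).

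Ifitm2 moved the other way. It was at 294, 208, 259, 314 and 273 FPKM in Resist and 490.1, 455, 413, 358 and 335 FPKM in Resist-Mac libraries, every Resist-Mac library lay above every Resist library, and the log2 change was -0.60 (SE 0.13, adjusted p = 0.00339). Correction for length and GC content turned the value to 0.20 (adjusted p = 0.216). In all, 5 of the 42 members did not overlap between these groups, or 11.9%, beside 29.7% of all genes. Of these, Ifnar1, Jak1 and Jak2 were higher in Resist, beside 12.3% of all genes, and Isg20 and Ifitm2 were lower, beside 17.4%. Isg20 turned sign after the length and GC correction and after quantile normalization.

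Ifnar1 and Jak1 did not overlap either but stayed under the fold threshold, at 0.42 (SE 0.12, adjusted p = 0.0119) and 0.56 (SE 0.14, adjusted p = 0.00701). In Resist-Mac libraries Ifnar1 was at 7.66, 5.59, 6.57, 7.12 and 8.3 FPKM, and every value was below the lowest Resist library. Ifnar2 was at 28.4, 22.3, 29.0, 23.4 and 24.5 FPKM in Resist-Mac libraries, overlapping Resist, with a log2 change of -0.17 (SE 0.12, adjusted p = 0.277). Ifngr1 was at 22.3, 18.8, 18.8, 18.9 and 20.3 FPKM in Resist-Mac libraries, also overlapping, with a log2 change of -0.20 (SE 0.10, adjusted p = 0.131). Ifngr2 was at 1.03, 0, 0, 0.64 and 0.83 FPKM in Resist-Mac libraries, with 2 of the 5 at 0.

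The number of calls in resistant tumors changed with the libraries left out and with the correction for length. Without Resist-Mac replicate 2 the members called fell to 3, Parp14, Gbp2 and Eif2ak2, beside 19.9% of all genes. Without Resist replicate 2 they fell to 5, beside 20.6%. Without Resist replicate 5, 11 were called, with Jak1, Gbp3 and Zbp1 added, beside 23.2% of all genes. Without Resist-Mac replicate 4 the number was 11 too, beside 24.4%. After the length and GC correction 2 were called, Gbp2 and Eif2ak2, beside 8.77% of all genes. In the same comparison 7 of 11 tested neutrophil and monocyte markers and 3 of 6 tested macrophage markers were called lower in Resist, with Lyz2 at -3.75, and 1 macrophage marker, Mertk, was called higher at 1.02. The part of these cells in the changes of the members was not tested.

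The third comparison set naive tumors against Naive-Mac tumors, which asks the same question without enzalutamide and sets batch 1 against batch 3. Of 40 members tested, 23 were called, or 57.5%, beside 59.7% of all 9837 genes. Called members were higher in naive tumors in 17 cases, beside 37.5% of all genes, and lower in 6, beside 22.1%. The median log2 change of members was 0.42, beside 0.23 over all genes. Median-ratio scaling shifted the median of all genes to -0.05 and that of the members to 0.22. The split between higher and lower calls was 13 to 10 under that scaling, 13 to 11 after quantile normalization and 15 to 1 after the length and GC correction. Of all genes 60.4%, 55.7% and 36.9% were called under these settings, with medians of -0.05, -0.06 and 0.02. How the calls over all genes split by direction there is not given here.

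Stat3 and Jak2 had the greatest changes among members. Stat3, which carries signals of the IL-6 family as well as of interferons, was at 14.6, 16.6, 17.8, 16.8 and 16.8 FPKM in naive and 2.31, 3.28, 3.11, 4.38 and 2.87 FPKM in Naive-Mac libraries. Every naive library lay far above every Naive-Mac library, and the log2 change was 2.08 (SE 0.13, adjusted p = 7.77e-09). Jak2 was at 22.6, 25.7, 26.3, 21.5 and 22.6 FPKM in naive and 2.87, 4.8, 7.59, 6.19 and 4.77 FPKM in Naive-Mac libraries, with no overlap and a log2 change of 2.03 (SE 0.18, adjusted p = 1.92e-07). Jak1 was at 24.5, 24.4, 25.1, 23.8 and 23.3 FPKM in naive and 4.77, 6.81, 8.2, 8.3 and 5.07 FPKM in Naive-Mac libraries, with no overlap and a log2 change of 1.75 (SE 0.14, adjusted p = 7.79e-08). Tyk2 followed with 1.51 (SE 0.17, adjusted p = 2.68e-06).

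**Figure D3:**
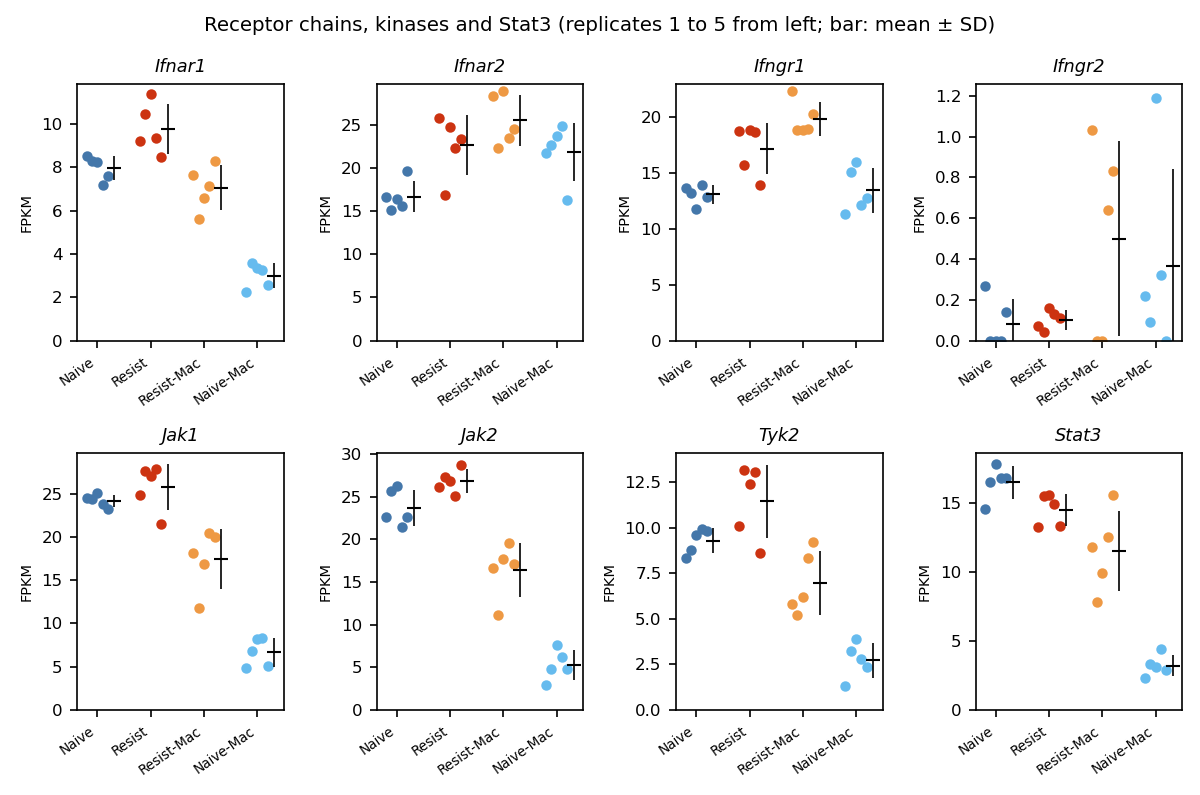
FPKM of the 4 receptor chains, the 3 Jak kinases and Stat3 in each library, with points for replicates 1 to 5 from left to right and bars for the mean ± SD. Ifnar1, Jak1, Jak2, Tyk2 and Stat3 were lowest in all 5 Naive-Mac libraries, Ifnar2 and Ifngr1 were not, and Ifngr2 stayed at or below 1.19 FPKM.

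Parp14, Dtx3l, Oasl2, Oas2 and Eif2ak2 were higher in naive tumors as well. Parp14 was at 4.47, 3.88, 5.25, 3.29 and 3.24 FPKM in naive and 0.34, 0.63, 0.51, 0.48 and 0.25 FPKM in Naive-Mac libraries, with a log2 change of 1.79 (SE 0.14, adjusted p = 5.27e-08). Dtx3l was at 6.55, 5.69, 5.3, 5.67 and 5 FPKM in naive and 0.81, 1.44, 1.31, 1.13 and 1.13 FPKM in Naive-Mac libraries, with a log2 change of 1.62 (SE 0.12, adjusted p = 3.3e-08). Neither gene overlapped between the groups, and every Naive-Mac library was far below the naive ones. Oasl2, of the oligoadenylate synthetase family, was at 12.3, 10.1, 18.6, 10.4 and 8.56 FPKM in naive and 2.47, 3.05, 4.69, 3.68 and 2.12 FPKM in Naive-Mac libraries, with a log2 change of 1.61 (SE 0.20, adjusted p = 7.3e-06). Oas2 was at 3.84, 2.66, 5.92, 2.87 and 2.38 FPKM in naive and 0.22, 0.7, 0.63, 0.68 and 0.11 FPKM in Naive-Mac libraries, with a log2 change of 1.60 (SE 0.20, adjusted p = 7.32e-06). Both separated the groups completely, although naive replicate 3 stood above the other naive libraries in each. Eif2ak2 was at 4.62, 4.42, 6.56, 4.12 and 3.88 FPKM in naive and 0.4, 1.29, 1.14, 1.21 and 0.67 FPKM in Naive-Mac libraries, again without overlap, with a log2 change of 1.57 (SE 0.17, adjusted p = 1.43e-06).

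Other members called higher in naive tumors were the RNA sensor Ddx58 at 1.55, the transcription factors Irf2 at 1.29 and Irf1 at 0.74, Oas3 at 1.25, Ifnar1 at 1.17, Ifitm3 at 0.75, Gbp2 at 0.66 and Ifit1 at 0.59 on the log2 scale. Their adjusted p ran from 2.47e-07 for Ddx58 to 0.00908 for Ifitm3. Members called lower in naive tumors were Ifitm2 at -1.45, Ifitm1 at -1.42, Ifi27, a mitochondrial protein, at -1.28, Isg15 at -0.99, Ifi35 at -0.87 and Oas1a at -0.72, with adjusted p of at most 0.000624. The Ifitm family did not move together here, with Ifitm3 opposite in sign to Ifitm1 and Ifitm2. The 3 genes kept their signs under median-ratio scaling, quantile normalization and the length and GC correction, but not every call. Ifitm1 and Ifitm2 were not called after the correction, Ifitm2 not after quantile normalization and Ifitm3 not with median-ratio scaling. Among marker genes of other cells, 2 of 10 tested neutrophil and monocyte genes, Ly6g and Elane, were called lower in naive tumors. The erythroid gene Hba-a1 at -2.13, Ly6d at -1.58 and the macrophage gene Tyrobp at -2.03 were lower as well, and the macrophage gene Mertk at 1.69 and the stromal gene Col1a1 at 0.89 were higher. All 5 prostate epithelium markers tested were called, 3 higher and 2 lower.

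Among receptor chains, Ifnar1 was at 2.25, 3.6, 3.35, 3.24 and 2.56 FPKM in Naive-Mac libraries, all below the naive ones. Ifnar2 was at 21.8, 22.6, 23.7, 24.9 and 16.3 FPKM there, overlapping naive at Naive-Mac replicate 5, with a log2 change of -0.36 (SE 0.12, adjusted p = 0.013). Ifngr1 was at 11.3, 15.0, 15.9, 12.1 and 12.7 FPKM in Naive-Mac libraries, overlapping naive, with a log2 change of -0.03 (SE 0.11, adjusted p = 0.826). The 95% interval of Ifngr1 was -0.26 to 0.21. Ifngr2 was at 0.22, 0.09, 1.19, 0.32 and 0 FPKM in Naive-Mac libraries. Counting all members, 23 of 40 did not overlap between naive and Naive-Mac tumors, or 57.5%, beside 66% of all genes. Of these, 15 were higher in naive tumors, beside 40.7% of all genes, and 8 were lower, beside 25.3%.

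The changes in both depletion comparisons followed transcript length, for members as for all genes. Across members, the Spearman rho between the log2 change and the length of the longest transcript was 0.80 in naive vs. Naive-Mac tumors, 0.75 in Resist vs. Resist-Mac tumors and 0.03 in Resist vs. naive tumors. Across all genes it was 0.71, 0.64 and 0.16. Genes are not independent replicates, and these values are given as a description. In naive vs. Naive-Mac tumors, called members higher in naive tumors had a median length of 3965 bases and called members lower had one of 929.5 bases. Transcripts under 1 kb held 18.75% to 21.42% of FPKM in naive and Resist libraries, 21.87% to 27.21% in Resist-Mac and 30.96% to 36.67% in Naive-Mac libraries. The share moved with the group and the batch together, and its part in the changes cannot be told apart from theirs.

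**Figure D4:**
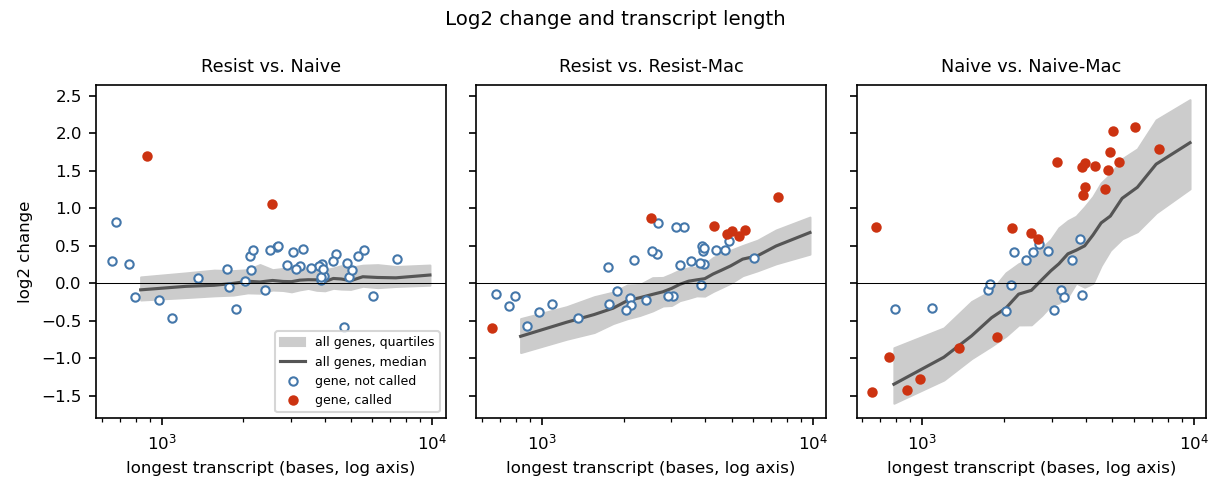
Log2 change of each tested member against the length of its longest transcript on a log axis, with the median and quartiles of all genes in bins of length. In both depletion comparisons the changes of members and of all genes increase with length, with a Spearman rho across members of 0.80 and 0.75, and in Resist vs. Naive the rho is 0.03.

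After the correction for length and GC content, 16 of 40 members were called in naive vs. Naive-Mac tumors, 15 of them higher in naive tumors, beside 36.9% of all genes. Of these, 13 were also called without it. Ifitm3, at 678 bases among the shortest members, went from 0.75 to 2.05, and Oasl2 from 1.61 to 1.42. Jak2 went to 1.23, Ddx58 to 1.10 and Stat3 to 0.65, all still called. Parp14 went to 0.34 and Oas3 to 0.15 and were no longer called. Isg15 turned from -0.99 to 0.20 (adjusted p = 0.381), and Ifitm1 and Ifitm2 went to -0.27 and -0.21. Bst2 turned from -0.34 to 0.75 and was then called higher (adjusted p = 3.68e-06). The 1 member called lower after the correction was Irf9 at -0.76.

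Whether depletion changed the members differently in resistant and naive tumors was tested in 1 fit of all 4 groups, as the difference between Resist and Resist-Mac less that between naive and Naive-Mac. Of 42 members, 13 were called, or 31%, beside 40.7% of all 9876 genes. Ifi27 and Ifitm2 lay above 0, beside 8.11% of all genes, and the other 11 lay below, beside 32.5%. The 11 were Stat3 at -1.74, Jak2 at -1.34, Jak1 at -1.20, Ddx58 at -1.05, Irf2 at -1.03, Irf1 at -1.02, Dtx3l at -0.99, Tyk2 at -0.86, Eif2ak2 at -0.80, Ifnar1 at -0.75 and Stat2 at -0.60. The median over members was -0.22, beside -0.28 over all genes. The values also followed transcript length, with a Spearman rho of -0.65 across members and -0.59 across all genes. The 2 depleted groups lie in different batches, so this difference and that of batch 2 from batch 3 cannot be told apart.

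Stat3 was at 13.3, 15.5, 15.6, 14.9 and 13.3 FPKM in Resist and 11.8, 7.82, 9.91, 12.5 and 15.6 FPKM in Resist-Mac libraries, which overlapped at Resist-Mac replicate 5, unlike the complete separation in naive tumors. Its difference of log2 changes was -1.74 (SE 0.20, adjusted p = 4.68e-07). Jak1 was at 24.9, 27.7, 27.1, 27.9 and 21.6 FPKM in Resist and 18.2, 11.7, 16.9, 20.5 and 19.99 FPKM in Resist-Mac libraries, and its difference was -1.20 (SE 0.20, adjusted p = 5.2e-05). Ddx58, the RNA sensor RIG-I, was at 6.86, 5.91, 7.74, 6.81 and 6.16 FPKM in naive, 7.99, 6.89, 7.87, 9.49 and 4.28 FPKM in Resist, 4.51, 1.91, 3.48, 9.2 and 7.55 FPKM in Resist-Mac and 1.23, 1.6, 2.5, 1.7 and 1.26 FPKM in Naive-Mac libraries. Resist and Resist-Mac overlapped widely for Ddx58, while every Naive-Mac library lay below every naive one, and the difference was -1.05 (SE 0.35, adjusted p = 0.0166).

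Irf1 and Irf2 had the same sign in this test. Irf2, which competes with Irf1 for its sites, was at 18.5, 20.4, 17.1, 20.4 and 21.1 FPKM in naive, 18.7, 23.0, 23.2, 21.9 and 17.9 FPKM in Resist, 16.4, 12.2, 16.8, 22.5 and 19.95 FPKM in Resist-Mac and 4.42, 8.74, 9.7, 8.09 and 7.09 FPKM in Naive-Mac libraries. Only the Naive-Mac libraries stood apart, and the difference was -1.03 (SE 0.23, adjusted p = 0.000701). Irf1 was at 23.0, 19.3, 38.3, 22.6 and 25.9 FPKM in naive, 56.3, 23.3, 24.8, 26.9 and 21.3 FPKM in Resist, 58.7, 26.8, 23.0, 42.5 and 33.6 FPKM in Resist-Mac and 14.2, 17.7, 12.8, 19.3 and 10.8 FPKM in Naive-Mac libraries. Resist replicate 1 and Resist-Mac replicate 1 were the highest of their groups for Irf1, and the difference was -1.02 (SE 0.36, adjusted p = 0.021). Ifi27 was at 244, 191, 214, 214 and 189 FPKM in naive, 208, 195, 178, 202 and 125 FPKM in Resist, 261, 179, 191, 298 and 258 FPKM in Resist-Mac and 585, 521, 510.1, 520.0 and 435 FPKM in Naive-Mac libraries, with the Naive-Mac libraries highest and a difference of 0.90 (SE 0.20, adjusted p = 0.000817). After the length and GC correction 6 members were called in this test, of which Stat3, Jak2, Irf2 and Irf1 were called without it too. Median-ratio scaling gave 15 called, 7 of them above 0, and quantile normalization gave 6, 3 of them above 0. The shares over all genes under these settings are not given here, and 40.7% of all genes were called in the main fit.

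The genes were then followed from library to library within groups, where treatment and the batch in the labels are constant. Codes in the label descriptions differ within the depleted groups. For the 42 members that averaged 1 FPKM or more, the highest and the lowest value of a group tended to fall in the same libraries. Resist replicate 4 held the highest Resist value of 26 members, or 61.9%, beside 28.8% of all 9876 genes, and Resist replicate 5 held the lowest of 31, or 73.8%, beside 27%. In Resist-Mac tumors replicate 4 held the highest of 24, or 57.1%, beside 28.7%, and replicate 2 the lowest of 35, or 83.3%, beside 41.8%. In naive tumors replicate 3 held the highest of 22, or 52.4%, beside 29.5%, and replicate 5 the lowest of 23, or 54.8%, beside 24.8%. In Naive-Mac tumors the highest values of 16 members fell in replicate 3, or 38.1%, beside 36.2%, and the lowest of 19 in replicate 1, or 45.2%, beside 54.9%. Naive-Mac replicate 5 held the lowest of 13, or 31%, beside 12.1%, and the highest of none, beside 12.2%. After the length and GC correction it held the lowest of 19 members, beside 13.9% of all genes, and replicate 1 that of 5.

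**Figure D5:**
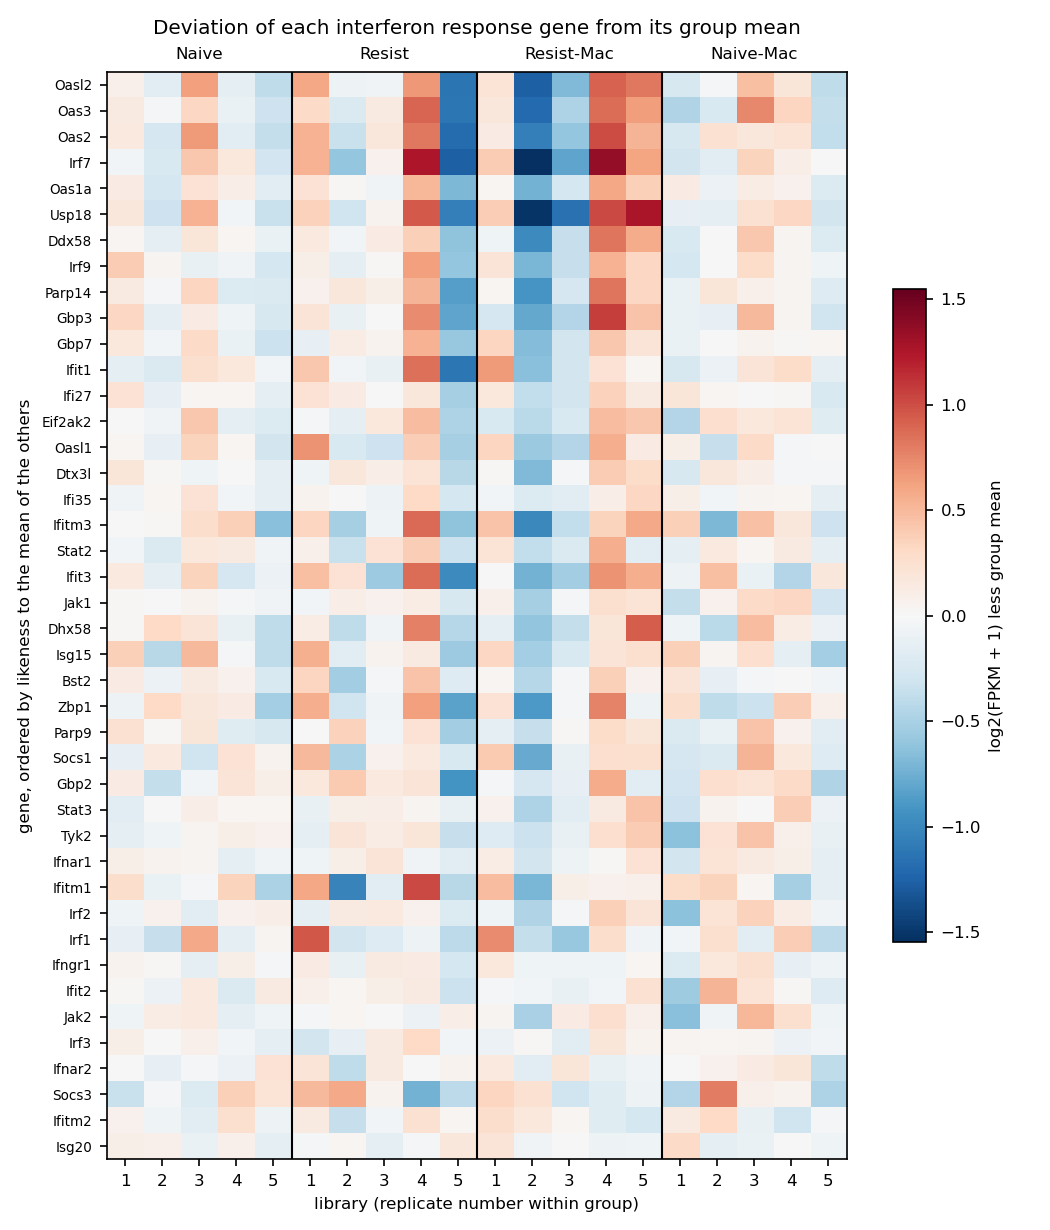
Log2(FPKM + 1) of 42 members in each of 20 libraries, less the mean of its group, with red above and blue below the group mean and genes ordered by their correlation with the mean of the other members. The upper rows are red in Resist replicate 4 and Resist-Mac replicates 4 and 5 and blue in Resist replicate 5 and Resist-Mac replicate 2, and the lowest rows, among them Isg20, Ifitm2 and Socs3, do not share this pattern.

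The members' deviations from their group means were correlated with each other. The median over 861 pairs of members was 0.53 across 20 libraries, beside 0.11 over all pairs of genes, and 88.4% of member pairs were above 0, beside 60.2%. After the length and GC correction the medians were 0.40 and 0.002. Within groups of 5 libraries, the median pair was at 0.32 in naive, 0.65 in Resist, 0.74 in Resist-Mac and 0.37 in Naive-Mac tumors, beside 0.03, 0.04, 0.09 and 0.23 over all genes. Without Resist replicate 5 and Resist-Mac replicate 2 the median over members was 0.37 across 18 libraries, beside 0.11 over all genes. Members share each library's RNA pool, depth and composition, and the values are descriptions of these libraries.

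The genes that followed the others most were effectors and regulators that interferon induces. The correlation of a member with the mean of the other 41 was 0.98 for Oasl2, 0.97 for Oas3, 0.97 for Oas2, 0.96 for Irf7, 0.94 for Oas1a, 0.94 for Usp18 and 0.94 for Ddx58. Usp18, which removes Isg15 from proteins and blocks signaling at Ifnar2, was at 6.86, 3.97, 5.41, 10.9 and 1.96 FPKM in Resist and 8.71, 1.59, 2.35, 14.1 and 16.8 FPKM in Resist-Mac libraries. Resist replicate 5 and Resist-Mac replicate 2 were the lowest libraries of their groups. Irf7, which drives interferon genes, was at 12.3, 5.04, 8.54, 20.8 and 2.83 FPKM in Resist and 9.12, 1.64, 3.37, 18.7 and 10.8 FPKM in Resist-Mac libraries. Replicate 4 was highest in both groups, and Resist replicate 5 and Resist-Mac replicate 2 were again the lowest. In naive libraries Irf7 ran only from 5.35 to 9.36 FPKM.

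Receptor chains, Jak2, Socs3, Ifitm2 and Isg20 followed the others less. The correlation with the mean of the other members was 0.57 for Ifnar1, 0.52 for Ifngr1, 0.42 for Jak2, 0.16 for Ifnar2, -0.05 for Socs3, -0.14 for Ifitm2 and -0.26 for Isg20. Socs3 and Ifitm1, the members called in Resist vs. naive tumors, therefore differed in this respect, with Ifitm1 at 0.57. Members with the response element motif in the promoter window had a median of 0.79 over 16 genes, with a range of -0.14 to 0.97. Members with a window and no match had a median of 0.57 over 19 genes, with a range of -0.26 to 0.98, and the 2 ranges overlap almost completely.

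The spread between libraries was greater for members than for all genes. The median SD of log2(FPKM + 1) over members was 0.21 in naive, 0.40 in Resist, 0.42 in Resist-Mac and 0.27 in Naive-Mac tumors, beside 0.12, 0.17, 0.24 and 0.24 over all genes. In Resist tumors 40 of 42 members had a larger SD than in naive tumors, or 95.2%, beside 69.5% of all genes. In Resist-Mac tumors the shares were 92.9% and 84%, and in Naive-Mac tumors 66.7% and 83.7%.

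Marker sums were set beside the members in the same libraries. The median deviation of members was 0.16, -0.10, 0.06, 0.34 and -0.46 in Resist replicates 1 to 5, where the macrophage sum was 13.8, 12.9, 62.9, 73.4 and 33.0 FPKM. Replicate 4 was highest on both measures, while replicate 5, lowest for the members, was in the middle of the group in the macrophage sum and highest in the osteoblast and stromal sum at 24.2 FPKM. Of that sum, Col1a1 made 13.5 and Col1a2 9.38 FPKM, and Bglap, Sp7 and Alpl were at 0 in Resist replicate 5. In Resist-Mac replicates 1 to 5 the median deviation was 0.14, -0.52, -0.23, 0.35 and 0.23, where the macrophage sum was 956, 108, 46.6, 238 and 514 FPKM. There replicates 2 and 3 were low on both measures. Of the macrophage sum, Lyz2 alone made 3.63, 1.96, 35.6, 45.7 and 18.6 FPKM in Resist and 788, 91.1, 33.9, 189 and 418 FPKM in Resist-Mac replicates. The sum over 5 plasmacytoid dendritic markers, nearly all of it Ly6d, was 12.8, 10.4, 9.83, 13.7 and 2.39 FPKM in Resist and 17.2, 6.48, 15, 22.7 and 23.8 FPKM in Resist-Mac replicates. Like the members, it was lowest in Resist replicate 5 and Resist-Mac replicate 2 and high in replicate 4 of both groups. In the labels, the descriptions of Resist-Mac replicates 2 and 3 begin with a shared code, and those of replicates 4 and 5 with another. The median deviation of members was -0.52 and -0.23 in the former and 0.35 and 0.23 in the latter. Over all genes it was -0.12 and -0.01 in the former and 0.09 and 0.07 in the latter. Both thus divide along these codes, and Resist-Mac replicate 1, at 0.14 for members, begins with neither. Naive-Mac replicates 1 and 4 also share a code. The part of immune cells or of these codes in the pattern was not tested.

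Several members were too low to be tested. In Resist vs. naive tumors the 8 members under the filter were Mx1, Mx2, Rsad2, Ifih1, Ifi44, Cxcl9, Cxcl10 and Ifngr2. Mx1 and Mx2, dynamin-like GTPases that block viral replication, reached 0.21 and 1.38 FPKM at most in any library. Rsad2, or viperin, stayed at or below 0.27 FPKM, Ifih1, the RNA sensor MDA5, at or below 0.08 FPKM, and Ifi44 at or below 0.22 FPKM. The chemokine Cxcl10 was at 0.09, 0.26, 0.26, 0.16 and 0 FPKM in naive and 1.11, 0.37, 0.46, 0.41 and 0 FPKM in Resist libraries. Cxcl9 was listed at 0 in every Resist and Naive-Mac library and at 0.09 FPKM at most elsewhere. In naive vs. Naive-Mac tumors Stat2 and Gbp7 were under the filter too, at 0.39 and 0.21 FPKM at most in Naive-Mac libraries.

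The most abundant members in naive tumors, Isg20, Ifitm2, Ifi27 and Bst2, a membrane protein that tethers budding virus, had means of 305 ± 23.7, 219.5 ± 25.4, 211 ± 22.3 and 180.0 ± 19.6 FPKM (SD, n = 5) there. Isg20 exceeded Ifitm2 without overlap, Ifitm2 and Ifi27 overlapped, and Bst2 overlapped Ifi27. At the same scale Oasl2 had a mean of 12.0 ± 3.92 FPKM, Irf7 one of 6.92 ± 1.65 and Ifit1 one of 1.48 ± 0.345 FPKM.

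Other genes of the pathway were counted from lists. Of 23 interferon ligands and lambda receptor chains, 5 had values in any table, and Ifne, Ifng and Ifnz were at 0 to 1.56 FPKM. The lambda receptor chain Ifnlr1 and its partner Il10rb were tested, and Ifnlr1 was called higher in naive vs. Naive-Mac tumors at 0.97. Of 22 tested sensors, adaptors and regulators, Irf8 alone was called in Resist vs. naive tumors at 0.92, or 4.55%, beside 6.35% of all genes. In Resist vs. Resist-Mac tumors Trex1 alone was called at -0.75, or 4.55%, beside 21.7% of all genes. In naive vs. Naive-Mac tumors 15 of 20 were called, 13 of them higher, with Traf3 at 2.31, Ptpn11 at 1.93, Adar at 1.83, Zc3hav1 at 1.74 and Traf6 at 1.44. The 15 of 20 are 75%, beside 59.7% of all genes.

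Of 90 further interferon-induced genes, 44 were tested in Resist vs. naive tumors and 4 were called, or 9.09%, beside 6.35% of all genes. The 4 were higher in Resist: Tgtp1, an interferon-induced GTPase, at 1.44, Ube2l6, the enzyme that passes on Isg15, at 0.90, Ifi47 at 0.74 and Ly6e at 0.72. In Resist vs. Resist-Mac tumors 12 of 47 were called, or 25.5%, beside 21.7% of all genes, with 5 higher and 7 lower, and the greatest changes were Ifitm6 at -2.53, Irgm2 at -1.95, Slfn2 at -1.33, Ly6a at -1.17 and Igtp at 0.96. In naive vs. Naive-Mac tumors 22 of 42 were called, or 52.4%, beside 59.7% of all genes, with 14 higher and 8 lower, led by Slfn9 at 2.65, Helz2 at 2.20 and Znfx1 at 1.98. Oas1a and Oas1g, Ifit3 and Ifit3b, and several Gbp and Ifitm genes are close copies, and how shared reads were divided among them is not given in the sources used here, so values for these genes are uncertain to that extent.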

How the data were processed

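Tumor cell RNA was sequenced with paired ends on a BGISEQ-500 platform in 5 libraries per group. The authors deposited FPKM per gene and library in 3 tables. For naive and Resist tumors the authors gave log2(FPKM + 1), which was turned back to FPKM, after which 100% of values had at most 2 decimals. The other 2 tables hold FPKM without a log. The submitters' processing notes name Bowtie2 and the mm9 build. The quantification tool is not given in the sources used here. The authors' 752 BGI_novel genes, with 8.45% of FPKM in the first table, were removed. The other 2 tables held 0 such genes, and values were not rescaled after the removal in the main fit. Rows are Entrez identifiers, and a RefSeq table named all 50 members. RefSeq promoters are of build GRCm38.p6, and no coordinates of mm9 were used.

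Members and lists were chosen with earlier results of these data known. Only the libraries of the groups compared entered a fit, and genes averaging under 1 FPKM were dropped. In R 4.3.3, limma 3.58.1 was run on log2(FPKM + 1) with a mean-dependent prior variance. Adjusted p-values are Benjamini-Hochberg values over every gene tested. Calls needed an adjusted p below 0.05 together with a change of more than 1.5-fold. Log2 changes are on the log2(FPKM + 1) scale, which understates those of low genes. The study's own tool, NOISeq, was not available, and a noise-distribution probability computed after it was an alternative. Fits were checked on simulated data. For the length and GC correction, library by library, splines (4 degrees of freedom) on the length and GC content of the longest GENCODE transcript were subtracted.

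All 50 members were accounted for. Members called in any comparison, receptor chains and Jak kinases were named with their changes, and values in every library were given for members called in Resist vs. naive tumors, the 8 greatest changes among called members of each other comparison, and receptor chains. Of other lists, at most the 5 greatest changes among called genes were named. Ifitm3, Isg20, Usp18 and Irf7 were added after their values were seen. Alternatives were a pseudocount of 0.1, a mean of at least 5 FPKM, no filter, quantile normalization, median-ratio scaling, a threshold of 2-fold, the adjusted p alone, no mean-dependent prior, the replicate number as a block, 1 fit of all groups, the noise-distribution probability over 0.8, the length and GC correction, and leaving out each replicate. Whether replicate pools differ beyond technical spread cannot be told from these tables. Other steps ran in Python 3.11.15 with pandas 2.3.3, numpy 2.4.6, scipy 1.17.1 and matplotlib 3.10.9.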

Additional observations from a re-analysis of the deposited data

Results flagged for a closer look

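In 6 of 168 groups of 5 libraries, the highest or lowest library of a member stood apart from the other 4 by Dixon's test at the 95% level. Chance gives about 1 in 20 groups, or 8.4 of 168. Irf1 was at 56.25 FPKM in Resist replicate 1, where the next library was at 26.92. Ifit2 was at 3.52 FPKM in Resist replicate 5, below 4.8 in the next, and at 4.51 FPKM in Resist-Mac replicate 5, above 3.6. Isg20 was at 306.32 FPKM in Resist-Mac replicate 1, above 266.75 in the next. Gbp2 was at 1.5 FPKM in Resist replicate 5, below 4.25, and at 2.89 FPKM in Resist-Mac replicate 4, above 1.57.

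For 13 members, the limma test of the difference itself set the change on depletion under enzalutamide apart from that under vehicle. They are 31% of the 42 tested, beside 40.7% of all genes. It was below 0 for Stat3 at -1.74, Jak2 at -1.34, Jak1 at -1.20, Ddx58 at -1.05, Irf2 at -1.03, Irf1 at -1.02, Dtx3l at -0.99, Tyk2 at -0.86, Eif2ak2 at -0.80, Ifnar1 at -0.75 and Stat2 at -0.60 on the log2 scale. It was above 0 for Ifi27 at 0.90 and Ifitm2 at 0.85. The depleted groups lie in batches 2 and 3, and the difference cannot be told apart from that of the batches. It also followed transcript length, with a Spearman rho of -0.65 across members. After the length and GC correction only Stat3, Jak2, Irf2 and Irf1 of the 13 stayed called, and Tyk2 and Stat2 turned sign.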

How the results depend on the processing

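In Resist vs. naive tumors, members called numbered 5 with the adjusted p alone, beside 18.9% of all genes. The other settings run on all libraries gave 2 or 3, beside 2.16% to 7.72% of all genes. With 1 replicate left out the number was 2 to 8, beside 5.23% to 8.3%, with 8 without Resist replicate 5. In Resist vs. Resist-Mac tumors the 8 called became 1 at a fold change over 2, beside 4.79% of all genes, and 13 with the adjusted p alone, beside 43.7%. The number was 4 at a mean of at least 5 FPKM, beside 23.1%, and 2 after the length and GC correction, beside 8.77%. The noise-distribution probability gave 1, beside 10.7%. With 1 replicate left out the number was 3 to 11, beside 19.9% to 24.4%. In naive vs. Naive-Mac tumors the 23 called became 14 by the noise-distribution probability and 22 to 25 when 1 replicate was left out. The difference of the depletion effect gave 6 calls at a fold change over 2, 6 after quantile normalization, 6 after the length and GC correction, and 12 to 19 when 1 replicate was left out. The median change in naive vs. Naive-Mac tumors went from 0.42 to 0.64 with a pseudocount of 0.1, to -0.0214 at a mean of at least 5 FPKM, to 0.22 with median-ratio scaling and to -0.0428 after quantile normalization. With 1 replicate left out, medians ran from 0.16 to 0.34 in Resist vs. naive, 0.15 to 0.43 in Resist vs. Resist-Mac and 0.38 to 0.52 in naive vs. Naive-Mac tumors. After the length and GC correction, signs turned for 3 of 42, 11 of 42, 7 of 40 and 8 of 42 members tested in the 4 comparisons, after quantile normalization for 3, 4, 8 and 9, and with median-ratio scaling for 2, 0, 0 and 4. Among members called in the comparison, receptor chains and kinases, the correction turned Jak1 in Resist vs. naive tumors (-0.0004), Ifngr1 (0.092) and Ifitm2 (0.20) in Resist vs. Resist-Mac tumors, Ifngr1 (0.37) and Isg15 (0.20) in naive vs. Naive-Mac tumors, and Tyk2 (0.0431) and Stat2 (0.0804) in the difference. Ifngr1 in naive vs. Naive-Mac tumors also turned without naive replicate 3 (0.0081), Naive-Mac replicate 2 (0.0145) or Naive-Mac replicate 3 (0.034), and ran from -0.0808 to 0.034 when 1 replicate was left out. Of the values for such genes under all settings, 1224 kept direction and side of the threshold, 119 fell below it, 11 rose past it and 10 turned. The cause was not tested. Blocking on replicate number, the 4 comparisons gave 3, 10, 23 and 17 calls, beside 6.17%, 22.2% and 59.9% of all genes in the 3 pairwise ones. For the 17 calls the share over all genes is not given here. The numbers did not pair the samples, since same-numbered libraries correlated at -0.27 to 0.36 in their deviations. Depth is unknown, so no floor for low members can be set.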
